A study of Mus musculus with 20 samples.

Results

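The mitochondrial ribosomal protein genes of mouse aorta were followed across 7 groups of pooled RNA. They were taken as every gene whose symbol starts with Mrpl or Mrps and a digit on a probe set assigned to that symbol alone. The rule found 76 genes, 29 named for the small subunit and 47 for the large subunit, among 18193 genes on the array. Subunits are counted and drawn by symbol throughout, also for Mrps18a, Mrps30 and Mrps36, whose names do not match their present placing. These 76 genes have 156 probe sets, and each gene was represented by its brightest one. All 76 passed the filter on low signals, which kept 11081 genes for testing.

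Each of the 20 arrays carried RNA pooled from 8 aortas of adult mice. In the drug experiment, C57BL/6J mice ate standard chow (3 arrays), or food that delivered rosiglitazone, a synthetic ligand that activates PPAR gamma, at 3 mg/kg/day for 2 days (3 arrays) or 14 days (3 arrays), or at 10 mg/kg/day for 2 days (3 arrays) or 14 days (2 arrays). In the genetic experiment, untreated mice with a gene-targeted knock-in of P465L, a dominant negative form of PPAR gamma, at its own locus (3 arrays) stood against wild-type littermates (3 arrays). The labels do not say which strain these littermates have or whether the knock-in mice carry one mutant copy or more, and the mutation is present in every cell. Pparg signals, which do not tell the mutant allele from the normal one, ran from 1156 to 3354 in P465L pools and from 1635 to 2727 in littermates.

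Mitochondria keep a genome of their own that encodes a few subunits of the respiratory chain and of ATP synthase, and a dedicated ribosome inside the organelle translates them. All proteins of this mitochondrial ribosome are encoded in the nucleus, made in the cytosol and imported, where they join ribosomal RNAs transcribed in the mitochondrion. In blood vessel samples the mitochondria belong to smooth muscle, endothelium and the surrounding fat, of which brown fat is the tissue richest in mitochondria.

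A few stretches of promoter sequence are shown because nuclear genes for mitochondrial proteins are known for sites of the factors NRF1, GABP (an ETS family factor) and YY1. RefSeq windows of 300 bases, 250 before and 50 after a start site in build GRCm38.p6, were found for 67 of the 76 genes (73 windows). The palindromic NRF1 motif was in 16.4% of the members' windows and in 4.6% of all 32851 windows. The ETS or GABP motif CCGGAAG was in 34.2% against 8.86%, and the YY1 motif in 6.85% against 0.852%. The E-box CACGTG was in 9.59% against 7.15%. The ERR motif TCAAGGTCA and the PPAR-RXR direct repeat, the element PPAR gamma is known to bind, were in 0 of the 73 windows and in 0.423% and 0.0396% of all windows. Both strands were searched, no matches to different motifs overlapped in a member's window, and the members' windows had a median GC content of 58.7% against 52.7% for all. Letter matches are a description and not evidence of binding. The 120 bases ahead of 6 members follow, 5′ to 3′ on the gene's strand, with any match inside the printed stretch in capitals: the stalk protein Mrpl12, then Mrpl51 and Mrps27, whose arrays separated with rosiglitazone, and Mrpl35, Mrpl42 and Mrps9, which differed between the untreated cohorts.
Mrpl12: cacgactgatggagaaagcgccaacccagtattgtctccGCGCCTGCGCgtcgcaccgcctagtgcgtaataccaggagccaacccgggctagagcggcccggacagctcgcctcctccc
Mrpl51: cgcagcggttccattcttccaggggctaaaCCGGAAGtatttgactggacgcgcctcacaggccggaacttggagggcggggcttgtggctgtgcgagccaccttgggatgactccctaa
Mrps27: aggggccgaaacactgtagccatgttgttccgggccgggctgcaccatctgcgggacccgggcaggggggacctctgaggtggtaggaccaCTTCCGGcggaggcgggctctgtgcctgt
Mrpl35: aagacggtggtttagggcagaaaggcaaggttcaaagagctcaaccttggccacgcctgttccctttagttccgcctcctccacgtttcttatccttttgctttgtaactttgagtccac
Mrpl42: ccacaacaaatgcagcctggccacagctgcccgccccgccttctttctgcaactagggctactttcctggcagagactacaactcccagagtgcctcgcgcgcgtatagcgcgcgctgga
Mrps9: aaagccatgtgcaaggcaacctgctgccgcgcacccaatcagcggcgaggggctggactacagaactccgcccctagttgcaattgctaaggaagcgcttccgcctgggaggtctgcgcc
These stretches are chr11:120484517-120484636 (plus strand) for Mrpl12, chr6:125192080-125192199 (plus) for Mrpl51, chr13:99344647-99344766 (plus) for Mrps27, chr6:71823785-71823904 (minus) for Mrpl35, chr10:95501950-95502069 (minus) for Mrpl42 and chr1:42851113-42851232 (plus) for Mrps9. The capitals mark an NRF1 match on the other strand 81 to 72 bases before the start site of Mrpl12. They also mark an ETS or GABP match 90 to 84 bases before that of Mrpl51. In Mrps27 they mark an ETS or GABP match on the other strand, 48 to 42 bases before its start site. The printed stretch of Mrps27 ends before the annotated gene, which begins ahead of that start site. Its distances are therefore not counted from the end of the stretch. The 300-base windows also hold matches outside the printed stretches, for NRF1 in Mrps9 and for YY1 in Mrpl35 and Mrps27. The window of Mrpl42 held no match to any of the motifs. The 12 genes with an NRF1 match had a median log2 difference of 0.15 in the rosiglitazone average minus chow, and the 55 genes without one had 0.06. For the ETS or GABP motif the medians were 0.06 with a match (25 genes) and 0.09 without (42 genes). For YY1 they were 0.04 with a match (5 genes) and 0.08 without (62 genes). By group, the NRF1 medians with and without a match were 0.18 and 0.09 at 3 mg for 2 days. They were 0.14 and 0.08 at 3 mg for 14 days, and 0.06 and 0.01 at 10 mg for 2 days. At 10 mg for 14 days they were 0.15 and 0.12, and in P465L −0.06 and −0.10. A link of the motifs to these values was not tested.

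Signals were compared as log2(signal + 72), so a difference of 1 is a doubling, and differences of weak genes are understated. A gene was called when its adjusted p was under 0.05 in limma, with Benjamini-Hochberg adjustment over the 11081 genes. The smooth muscle markers of the aortic wall were bright on every array, for example Acta2 at 100906 or more and Myh11 at 61255 or more. Genes of fat cells were measured too, with Adipoq at 18240 or more and the brown fat gene Ucp1 at 6878 or more. The 11 tested adipocyte markers of 16 listed summed to 177284 to 268226 in chow, 274829 to 521314 over the rosiglitazone groups, 309529 to 457247 in littermates and 201189 to 374413 in P465L pools. For the 10 tested brown adipocyte markers of 11 listed, which share Cidea with the first list, the sums were 38799 to 82372 in chow, 87511 to 219187 with rosiglitazone, 93594.5 to 190891 in littermates and 39582 to 135406 in P465L. No listed adipocyte marker on the array was at 0, and Lep and Tshr stayed below the level needed for testing. In pools of whole tissue, fewer cells of a type and less RNA per cell cannot be told apart.

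With rosiglitazone, the mitochondrial ribosomal protein genes differed little from chow, and none was called. Averaged over the 4 rosiglitazone groups and set against chow, 0 of 76 members were called by limma, while 48 of all genes tested were, or 0.433%. At an unadjusted p under 0.05 there were 14 members, or 18.4% of them against 14.2% of all genes. Of these, 12 were higher (15.8%, against 5.79% of all genes) and 2 lower (2.63%, against 8.37%). The members' median log2 difference was 0.07, that of all genes −0.02, and 56 of 76 members (73.7%) had a difference above 0, against 45% of all genes. The brown adipocyte markers had a median of 0.97 in the same comparison with 10 of 10 above 0, the adipocyte markers 0.48 with 10 of 11, and their part in the members' values was not tested. Fabp4, a fatty acid carrier of fat cells and a known PPAR gamma target, was called in this comparison, at 0.84 (SE 0.17, adjusted p 0.0257).

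The subunits of oxidative phosphorylation and the cytosolic ribosomal proteins had higher medians than the members. The 79 tested subunits of oxidative phosphorylation share Cox7a1 and Cox8b with the brown adipocyte list, though these are not particular to brown fat. They had a median of 0.23 with 77 of 79 above 0 and 0 called. At an unadjusted p under 0.05 there were 31 of them (39.2%, against 14.2% of all genes). The 42 tested cytosolic ribosomal proteins had a median of 0.11 with 35 above 0 and 0 called. Of these, 4 had an unadjusted p under 0.05 (9.52%, below the 14.2% of all genes). Among the members, those named for the large subunit had a median of 0.09 (37 of 47 above 0) and those named for the small subunit 0.05 (19 of 29). Members with a bacterial counterpart (46 genes) had a median of 0.07, as did the 30 genes listed without one, which include Mrps36.

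**Figure D1:**
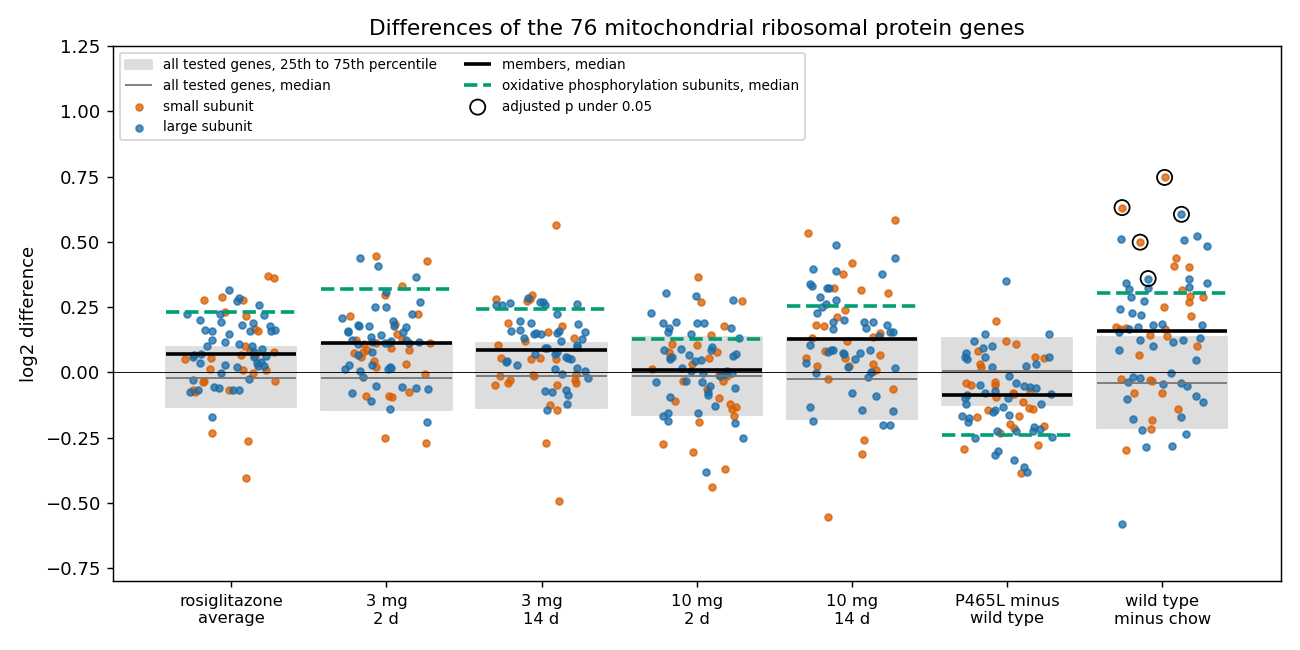
Log2 difference (vertical axis) of each of the 76 genes in 7 comparisons (horizontal axis). Each point is a gene, orange for the small and blue for the large subunit by symbol, and the black line is the median of the 76 genes. The grey box and line are the quartiles and the median of all 11081 tested genes. The green dashed line is the median of 79 oxidative phosphorylation subunits, and circles mark adjusted p under 0.05. The members' medians run from −0.08 in P465L to 0.16 between the untreated cohorts, and the only 5 circled genes are in the latter.

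A pair of members had arrays that did not overlap between rosiglitazone and chow, 1 higher and 1 lower. Each is 1.32% of the members, against 0.803% of all genes higher and 1.26% lower. At shares this near, the pair is not a result about the members as a group. Mrpl51, a large subunit protein without a bacterial counterpart, had signals of 12953, 12587 and 11743 in chow. With rosiglitazone it was at 18916, 13896 and 13869 at 3 mg for 2 days, 13581, 15802 and 15300 at 3 mg for 14 days, 15568, 15850 and 14693 at 10 mg for 2 days, and 17419 and 15172 at 10 mg for 14 days. All 11 treated arrays were thus above all 3 chow arrays, which was true of 0.803% of all genes, and the difference was 0.31 (SE 0.10, adjusted p 0.163). Mrps27, a small subunit protein of the pentatricopeptide repeat family that binds RNA, went the other way. Its signals were 1143, 1045 and 1139 in chow, against 991, 937 and 802 at 3 mg for 2 days, 646, 674 and 1032 at 3 mg for 14 days, 827, 1018 and 817 at 10 mg for 2 days, and 716 and 750 at 10 mg for 14 days. All 11 treated arrays lay below chow, as in 1.26% of all genes, with a difference of −0.40 (SE 0.13, adjusted p 0.172). Neither gene passed the adjusted threshold. Mrps27 has a single probe set, and the 2 weaker probe sets of Mrpl51 had differences of 0.15 and 0.50.

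The other members at the ends of this comparison overlapped with chow. Mrps36 was highest at 0.37 (SE 0.16, adjusted p 0.312), and it is named for the ribosome but is now known as a component of the alpha-ketoglutarate dehydrogenase complex of the citric acid cycle. Mrps28, a small subunit protein with a bacterial counterpart, followed at 0.36 (SE 0.12, adjusted p 0.162). Its chow arrays read 4602, 5027 and 5028, and 9 of 11 treated arrays were above them. Mrps26 and Mrps34, both small subunit proteins specific to mitochondria, were lowest after Mrps27, at −0.26 (SE 0.11) and −0.23. Mrps26 read 2752, 2920 and 2612 in chow and lower than all of these on 10 of 11 treated arrays.

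**Figure D2:**
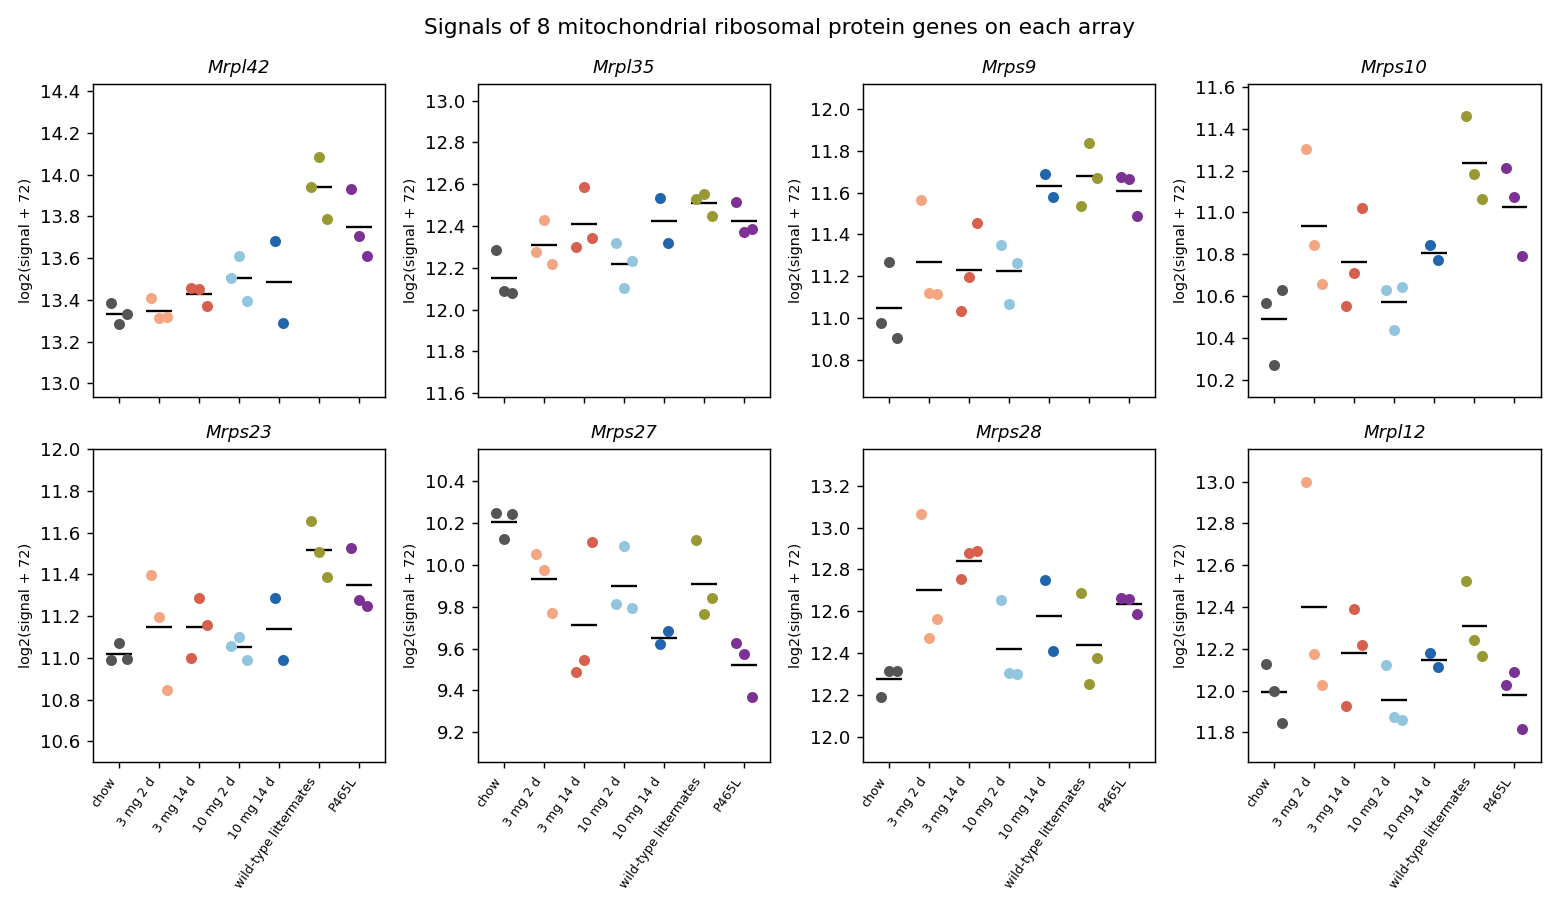
Log2(signal + 72) on each array (vertical axis, spanning the same 1.5 log2 units in each panel) of 8 genes by group (horizontal axis). Points are arrays and bars are group means. Mrps27 is above all other drug-experiment arrays in the 3 chow pools, and Mrpl42, Mrpl35, Mrps9, Mrps10 and Mrps23 are higher in all 3 littermate pools than in all 3 chow pools.

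Taken one at a time against the same 3 chow arrays, the 4 rosiglitazone groups each had 0 of 76 members called by limma. At 3 mg for 2 days, where 0% of all genes were called, 6 members had an unadjusted p under 0.05, or 7.89% of them against 8.83% of all genes. All 6 were higher, as were 4.42% of all genes, and 0 were lower (4.4%). The median was 0.11, and 60 members (78.9%) were above 0, against 45.5% of all genes. All arrays lay above chow for 5 members (6.58%, against 5.09%) and below it for 1 (1.32%, against 6.91%). The highest differences were in Mrps10 (0.45), Mrpl20 (0.44) and Mrps28 (0.43), and the lowest in Mrps27 (−0.27), Mrps5 (−0.25) and Mrpl52 (−0.19). Without array C of this group, Mrps5 and Mrpl52 turned to 0.07 and 0.11. Array A of this group stood apart: the members' mean, centred on each gene's mean over all arrays, was 0.28 on it and −0.03 and −0.15 on the other 2 arrays. On array A the oxidative phosphorylation subunits were at 0.49 and the adipocyte markers at 0.89. Without array A, the members' median in this group was −0.02, and Mrps10 and Mrps28 were at 0.26 and 0.24. Mrps10 was at 0.02 when its probe sets were averaged. Without array A of this group, the average over all rosiglitazone groups had a members' median of 0.03.

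Mrpl12 shows the effect of that array on a single gene. It encodes the counterpart of the bacterial stalk protein, which recruits translation factors, and it also binds the mitochondrial RNA polymerase. Its signals were 4405, 4022 and 3611 in chow and 8109, 4555 and 4096 at 3 mg for 2 days, so that array A alone was near a doubling and array C was within the chow range. The difference was 0.41 (SE 0.18, adjusted p 0.533), and it was 0.19 at 3 mg for 14 days, −0.04 at 10 mg for 2 days and 0.15 at 10 mg for 14 days.

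At 3 mg for 14 days, 0% of all genes were called, and 5 members had an unadjusted p under 0.05 (6.58%, against 8.27% of all genes), 4 higher (5.26%, against 3.58%) and 1 lower (1.32%, against 4.68%). The members' median was 0.09, and 54 of 76 (71.1%) were above 0, against 46.9% of all genes. Arrays did not overlap with chow for 6 higher members (7.89%, against 6.13%) and 2 lower ones (2.63%, against 7.49%). Mrps28 was highest, with signals of 6828, 7458 and 7507 that all exceeded the chow arrays, and a difference of 0.57 (SE 0.15, adjusted p 0.301). Mrps35 (0.30) and Mrpl39 (0.28) followed, both mitochondria-specific proteins. The lowest were Mrps27 (−0.49), Mrps26 (−0.27) and Mrpl15 (−0.15). Mrpl15 turned to 0.09 when its probe sets were averaged.

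At 10 mg for 2 days, 0.505% of all genes were called, and 6 members had an unadjusted p under 0.05 (7.89%, against 15.2% of all genes), 3 higher (against 5.68%) and 3 lower (against 9.55%). The median was 0.01, and 40 of 76 members (52.6%) were above 0, against 47.7% of all genes. Arrays stood clear of chow for 6 higher members (7.89%, against 10.2%) and 5 lower ones (6.58%, against 13.5%). Mrps36 (0.37), Mrpl51 (0.31) and Mrpl21 (0.29) were highest. Mrps34 was lowest at −0.44 (SE 0.18, adjusted p 0.245), with signals of 6345, 5368 and 4771 against 6765, 8636 and 6984 in chow, which did not overlap. Mrpl48 (−0.38) and Mrps26 (−0.37) were next. For Mrpl48 the difference was −0.01 when its probe sets were averaged.

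At 10 mg for 14 days, which had 2 arrays, 0.271% of all genes were called, and 14 members had an unadjusted p under 0.05 (18.4%, against 12.6% of all genes). Of these, 13 were higher (17.1%, against 4.78%) and 1 lower (1.32%, against 7.77%). The median was 0.13 and 61 of 76 members (80.3%) were above 0, against 46% of all genes. The 2 arrays differed, with a centred members' mean of 0.12 on array A and −0.01 on array B, against −0.06, −0.01 and −0.14 in chow. The median was 0.18 without array B and 0.06 without array A. Mrps9, the counterpart of a bacterial small subunit protein, was highest at 0.58 (SE 0.16, adjusted p 0.131). Its signals were 3230 and 2984, both above the chow values of 1942, 2393 and 1846. Mrps36 was at 0.54, but the 2 arrays differed: 6538 gave 0.81 without array B, and 4424 gave 0.26 without array A. Mrpl47 was at 0.49. Mrps27 (−0.55), Mrps26 (−0.31) and Mrps34 (−0.26) were lowest. Both arrays lay above chow for 23 members (30.3%, against 14.8% of all genes) and below it for 6 (7.89%, against 20.3%). In this group the brown adipocyte markers had a median of 1.03. The 10 skeletal muscle markers were all below 0, with a median of −1.22, the 2 red blood cell markers had −0.90, and the cardiac markers 0.57 with 5 of 7 above 0. The part of these cell types in the members' values was not tested.

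No member was called for dose or for time. For 10 mg minus 3 mg, over both times, 0 of 76 were called, as were 0% of all genes, and the 3 members with an unadjusted p under 0.05 were all lower at 10 mg: Mrps28 (−0.27), Mrpl48 (−0.24) and Mrpl58 (−0.22), a peptidyl-tRNA hydrolase built into the large subunit that frees stalled ribosomes. They are 3.95% of the members, against 12.7% of all genes in either direction and 6.98% lower. The members' median was −0.03, and it was 0.03 without array A of the 3 mg, 2 day group. For 14 minus 2 days, 0 of 76 were called, again with 0% of all genes, and Mrpl33 (0.26) and Mrpl18 (0.21) had an unadjusted p under 0.05, both higher at 14 days, or 2.63% of the members against 4.19% of all genes in either direction and 1.86% higher. The median was 0.04, and 0.11 without the same array.

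**Figure D3:**
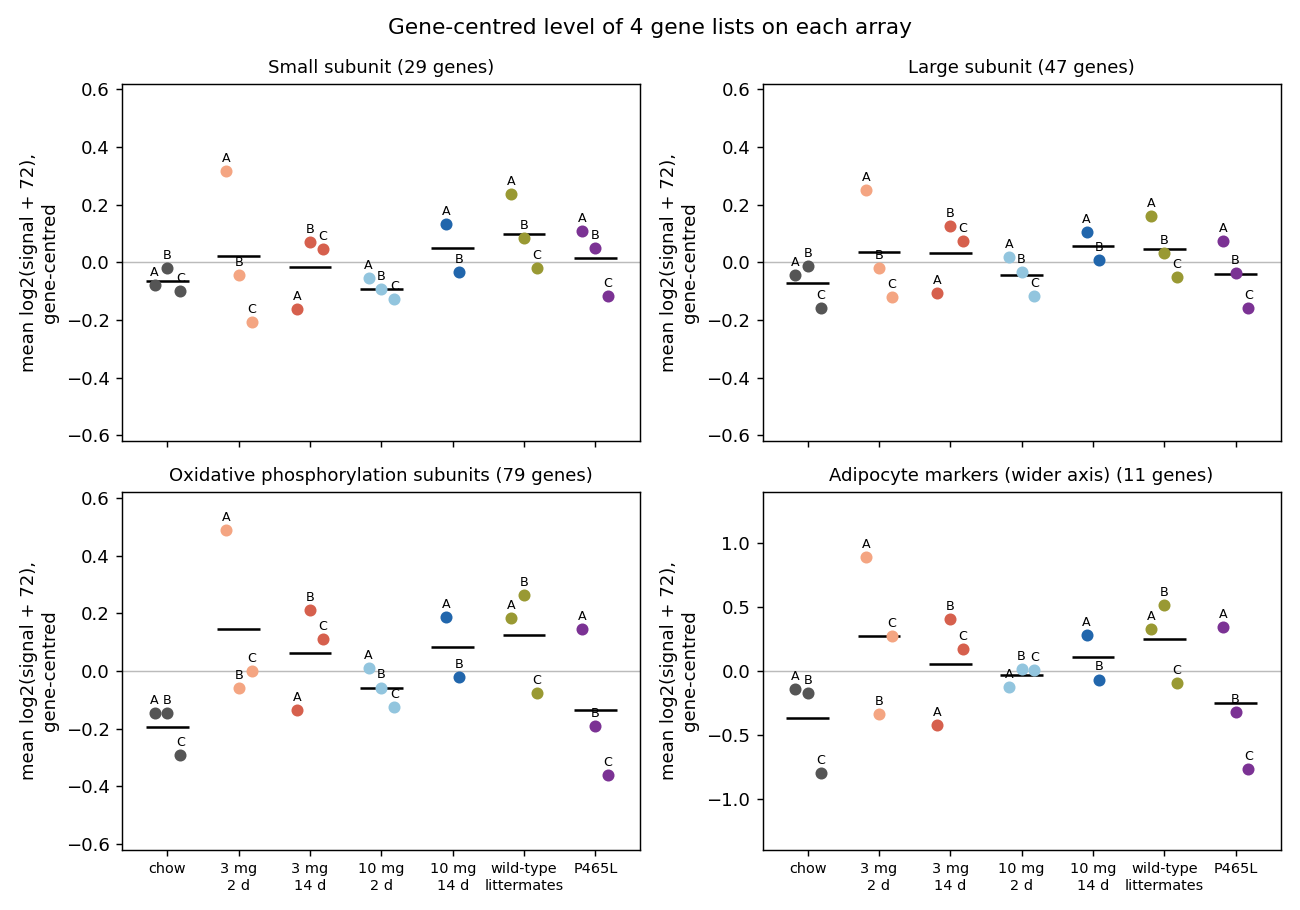
Mean log2(signal + 72) of 4 gene lists on each array (vertical axis), after each gene was centred on its mean over the 20 arrays, by group (horizontal axis). Letters name the arrays and bars are group means. Both subunits, taken by symbol, are highest on array A of the 3 mg, 2 day group (0.32 and 0.25). The oxidative phosphorylation subunits and adipocyte markers are also highest there, and the adipocyte panel has a wider axis.

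In P465L aortas, the members again differed little from their controls and none was called. Against wild-type littermates, 0 of 76 members were called by limma, with 0.018% of all genes (2 genes). At an unadjusted p under 0.05 there were 4 members (5.26%, against 7.43% of all genes), of which 3 were lower (3.95%, against 3.58%) and 1 higher (1.32%, against 3.84%). The median was −0.08 against 0.01 for all genes, and 54 of 76 members (71.1%) were below 0, against 48.9% of all genes. The oxidative phosphorylation subunits had a median of −0.24 with 71 of 79 below 0 and 0 called. Of these, 14 had an unadjusted p under 0.05, all lower (17.7%, against 3.58% of all genes lower). The cytosolic ribosomal proteins had −0.11 with 34 of 42 below 0. Adipocyte markers had a median of −0.53 with 10 of 11 below 0, and brown adipocyte markers −0.80 with 8 of 10, among which Elovl3, a fatty acid elongase of brown fat, was called at −2.35 (SE 0.34, adjusted p 0.0087). All 10 skeletal muscle markers were below 0 as well, with a median of −1.29, as were both red blood cell markers, with −0.68. The smooth muscle markers had a median of −0.21 with 6 of 8 below 0, the endothelial markers −0.21 with 6 of 7, the macrophage markers 0.05 and the cardiac markers 0.03. Their part in the members' values was not tested.

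The lowest member in P465L was again Mrps27, with signals of 720, 690 and 588 against 1041, 798 and 846 in littermates. The groups did not overlap, and the difference was −0.39 (SE 0.17, adjusted p 0.65). Mrpl37, a large subunit protein specific to mitochondria, read 1594, 1404 and 1260 against 1989, 1954 and 1664, also without overlap, at −0.38 (SE 0.16, adjusted p 0.646). Mrpl28 was at −0.36, and at −0.13 when its probe sets were averaged. Arrays did not overlap for 5 members below littermates (6.58%, against 6.99% of all genes) and 3 above (3.95%, against 7.35%). Mrpl33 was the highest, at 4765, 5556 and 5841 against 4732, 3964 and 3927, with a difference of 0.35 (SE 0.13, adjusted p 0.625). Mrps28 (0.20) and Mrpl44 (0.15), an RNase III-like protein of the large subunit, came next.

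The 2 experiments share no array, so their values can be set side by side. Of the 76 members, 40 were above 0 with rosiglitazone and below 0 in P465L (52.6%), as were 21.7% of all genes and 88.6% of the oxidative phosphorylation subunits. A further 16 were above 0 in both, 14 below 0 in both, and 6 below with rosiglitazone and above in P465L. The members' shares of 73.7% above 0 with rosiglitazone and 71.1% below 0 in P465L give a joint share near 52.6% without any link. The count of 40 therefore does not show that the same genes moved in opposite directions. Across the 76 genes, which are not independent, the differences had a Pearson r of 0.13 and a Spearman rho of 0.07. Mrps27 was low in both and Mrps28 high in both, while Mrps36 was at 0.37 with rosiglitazone and −0.28 in P465L.

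**Figure D4:**
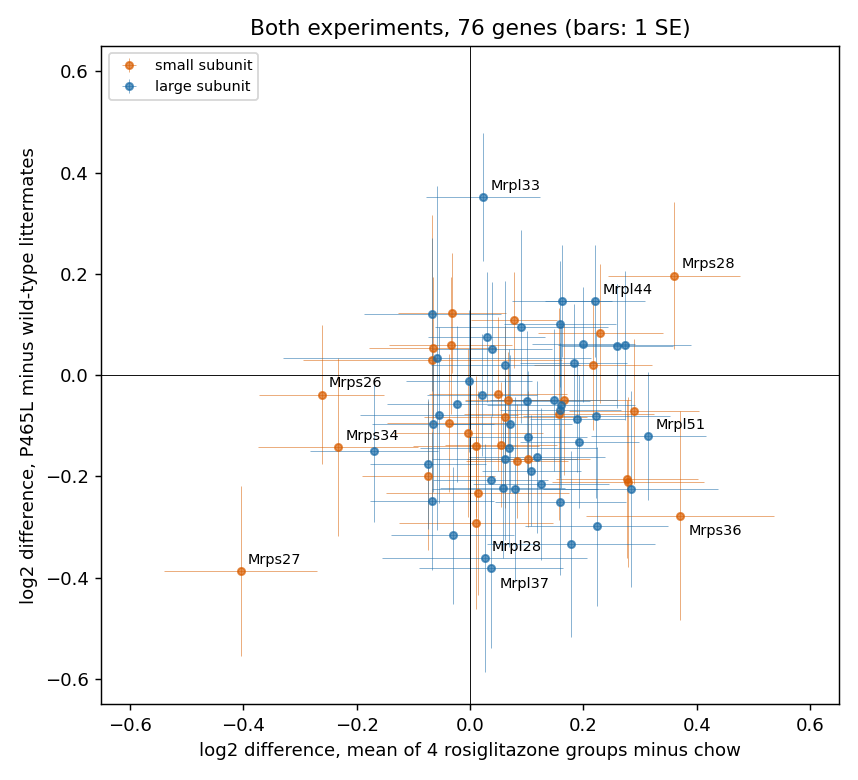
Log2 difference of each of the 76 genes for the mean of the 4 rosiglitazone groups minus chow (horizontal axis) and for P465L minus wild-type littermates (vertical axis). Points are genes, orange for the small and blue for the large subunit by symbol, and bars are 1 SE. The lower right part, higher with rosiglitazone and lower in P465L, holds 40 genes, and Mrps27 lies at −0.40 and −0.39.

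The comparison in which members were called was that of the 2 untreated cohorts, the wild-type littermates minus the chow controls. Here 5 of 76 were called (6.58%), as were 6.49% of all genes (719 genes). All 5 were higher in littermates, where 2.6% of all genes were called higher, and 20 members had an unadjusted p under 0.05, 19 of them higher (26.3% in either direction, against 22.5% of all genes). The 19 are 25% of the members, against 9.22% of all genes, and the 1 lower is 1.32%, against 13.3%. All littermate arrays lay above all chow arrays for 18 members (23.7%, against 11.8%) and below them for 4 (5.26%, against 16%). Cohort, genetic background and any processing of the cohorts at separate times cannot be told apart here. The same 3 littermate arrays are the reference for P465L, and the same 3 chow arrays are the reference for rosiglitazone. Those comparisons are therefore not independent of this one. The members' centred mean was 0.07 in littermates, −0.02 in P465L and −0.07 in chow.

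Mrps10, a small subunit protein with a bacterial counterpart, had the largest difference of the 5. It read 2749, 2254 and 2069 in littermates against 1446, 1164 and 1513 in chow, at 0.75 (SE 0.17, adjusted p 0.0114). Mrps9 read 2899, 3588 and 3181 against 1942, 2393 and 1846, at 0.63 (SE 0.14, adjusted p 0.0117), and its 3 other probe sets were at 0.32, 0.38 and 0.21. In both genes the littermate arrays lay above all chow arrays. Mrpl42, a mitochondria-specific large subunit protein, read 15651, 17315 and 14083 against 10610, 9903 and 10240, at 0.61 (SE 0.11, adjusted p 0.00249). Mrpl35, whose bacterial counterpart sits in the large subunit, read 5846, 5930 and 5513 against 4922, 4279 and 4252, at 0.36 (SE 0.11, adjusted p 0.0458), and its 2 other probe sets were at 0.28 and 0.08. These pairs of groups did not overlap either.

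Mrps23, mitochondria-specific and in the small subunit, was the fifth, at 3152, 2839 and 2609 against 1959, 2079 and 1970, or 0.50 (SE 0.13, adjusted p 0.031). Its second probe set, equally bright on average (mean log2 of 11.20 for both), was at −0.24 and the dimmest at −0.40, so the probe sets of Mrps23 disagree. Leaving out chow array C, littermate array A or littermate array B left 2 calls each, and leaving out rosiglitazone arrays A or C of the 3 mg, 2 day group, which enter only through the shared spread, gave 9 and 10. Mrpl42 was called in each of these fits. When the probe sets of a gene were averaged, 0 members were called. Mrps10 was then at 0.76 (adjusted p 0.183), Mrps9 at 0.38 (adjusted p 0.0787), Mrpl42 at 0.35 (adjusted p 0.454) and Mrpl35 at 0.24 (adjusted p 0.211) in limma. The second probe sets of Mrpl42 and Mrps10, both below the level needed for testing, were at 0.09 (SE 0.48) and 0.78 (SE 0.62).

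Other gene groups also differed between the untreated cohorts. Of the oxidative phosphorylation subunits, 8 of 79 were called, all higher in littermates. Of all genes, 6.49% were called here, and 2.6% were called higher. The median of these subunits was 0.30, against 0.16 for the members and −0.04 for all genes. The adipocyte markers Fabp4, Agpat2 and Car3 (of 11 tested) and the brown adipocyte markers Ucp1, Elovl3, Ppara and Otop1 (of 10) were called higher. The medians over these lists were 0.66 and 1.11. Skeletal muscle markers, with 10 of 12 tested, had a median of 2.16 with 0 called. At an unadjusted p under 0.05 there were 7 of them (70%, against 22.5% of all genes). The signals of the 10 markers summed to 2773 to 33853 in chow and 17073 to 87120 in littermates. The cardiac marker Tnnt2 was called lower, at −0.84, and among cytosolic ribosomal proteins Rps14 was called higher (0.40) and Rps6 lower (−0.61). The part of these cell types in the members' values was not tested.

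**Figure D5:**
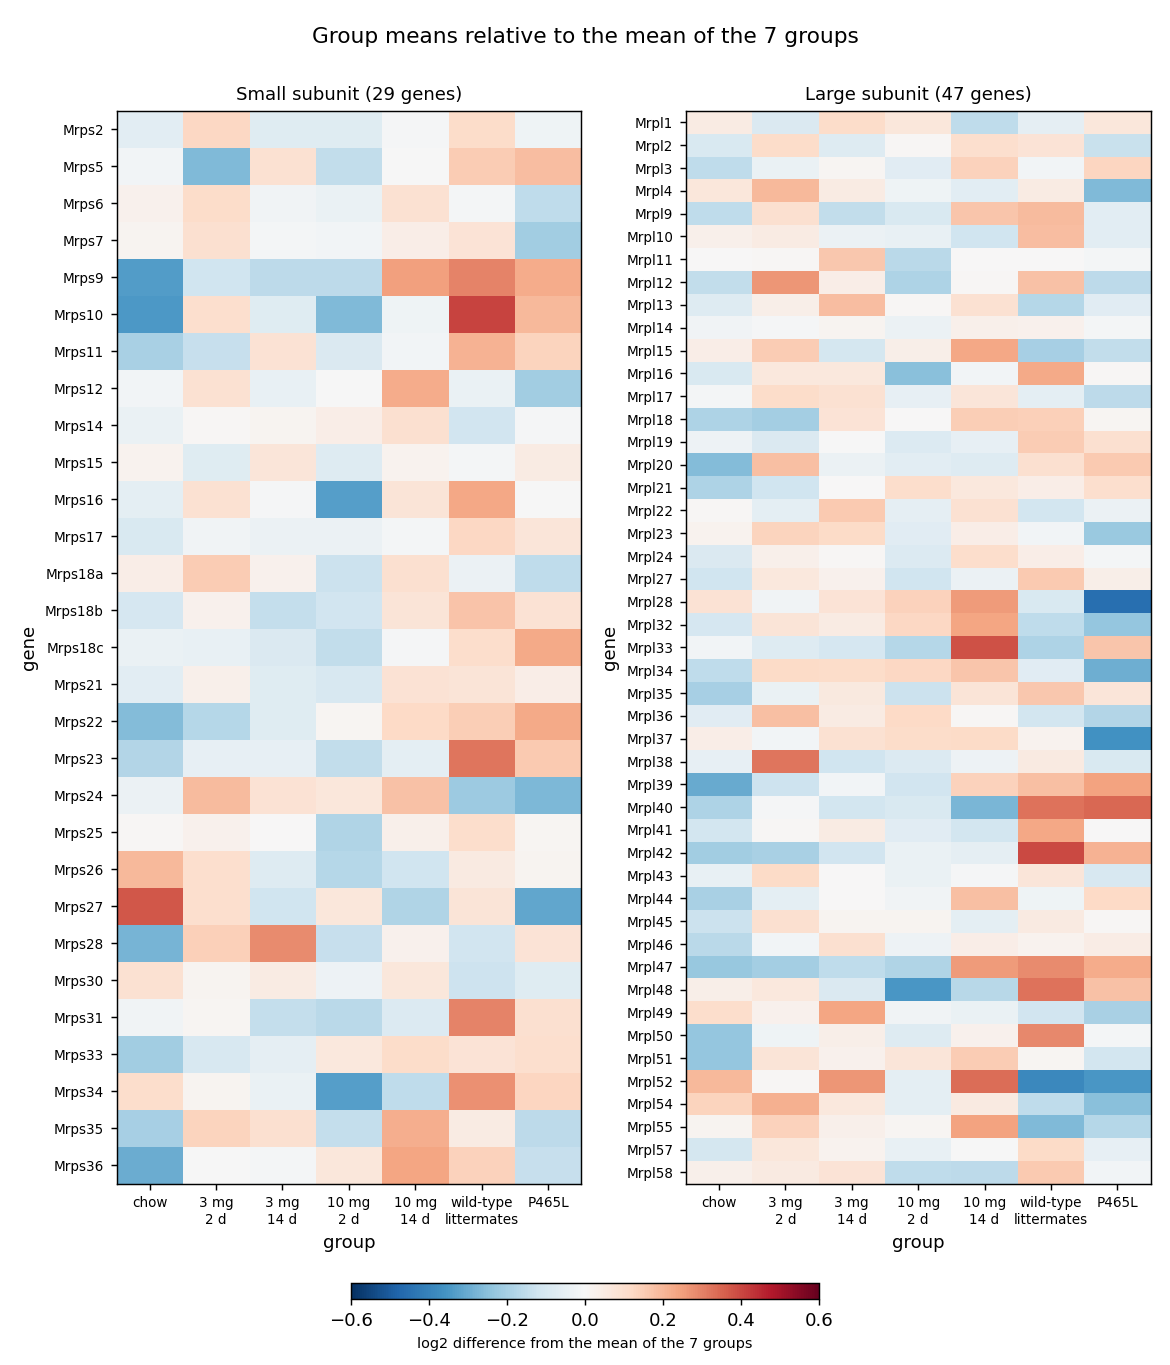
Group means of each of the 76 genes in the 7 groups (columns), as the log2 difference from the mean of the 7 groups. Rows are genes, with the small subunit left and the large subunit right, by symbol. Red is higher and blue is lower. Chow is blue for Mrps9, Mrps10, Mrps28 and Mrps36 and red for Mrps27, and littermates are red for the 5 called genes.

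Members with particular roles were not called in the rosiglitazone average or in P465L. Mrps12, which lies at the decoding centre, was at 0.08 in the rosiglitazone average and −0.17 in P465L. The stalk base protein Mrpl11 was at 0.00 and −0.01, and Mrpl41 at 0.08 and −0.23. Mrps2 was at 0.05 and −0.14, and Mrps16 at 0.01 and −0.23, both counterparts of bacterial small subunit proteins. None of these had an adjusted p below 0.733 in the rosiglitazone average or 0.734 in P465L. The 3 versions of one bacterial protein, Mrps18a, Mrps18b and Mrps18c, were at 0.00, 0.06 and −0.03 in the average and −0.11, −0.08 and 0.12 in P465L. Mrps30, now placed in the large subunit despite its name, as is Mrps18a, was at −0.07 and 0.05. Mrpl58 was at −0.07 and −0.18.

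Brightness only names probe sets here, since it depends on the probes as well as on the RNA. Mrps14, Mrps34 and Mrps21 had the highest mean signals of the small subunit and Mrps27, Mrps5 and Mrps10 the lowest. In the large subunit Mrpl51, Mrpl39 and Mrpl13 were highest and Mrpl1, Mrpl38 and Mrpl37 lowest. All means lay between 861 and 14630. The 80 further probe sets of 42 members had a median of 0.09 in the rosiglitazone average and −0.07 in P465L, and 64 and 44 of 80 had the sign of their gene's brightest one. Among them, the 48 at the level needed for testing had medians of 0.11 and 0.01, and 41 and 27 of 48 had that sign. The lower median in P465L was thus not seen in these 48, whose genes' brightest probe sets had −0.05. RefSeq lists pseudogenes of Mrpl23, Mrpl27, Mrpl48 and Mrps36, and the probe sets were not checked against them.

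Genes that work beside the ribosome were called only between the untreated cohorts. Lists were made of ribosomal proteins under other symbols (4 of 6 listed symbols tested), translation factors (14 of 16) and mitochondrial aminoacyl-tRNA synthetases (14 of 21). Further lists held ribosome assembly factors (23 of 24) and mitochondrial transcription factors with their nuclear regulators (12 of 12). The symbols are not all separate genes. Ict1 in the first list is an older symbol of the member Mrpl58, and Gars and Kars are each listed under an older and a newer symbol. All of these lists had 0 called in any rosiglitazone, dose, time or P465L comparison. At an unadjusted p under 0.05 in the rosiglitazone average, these lists held 1, 0, 1, 4 and 3 genes. These are 25%, 0%, 7.14%, 17.4% and 25% of the lists, against 14.2% of all genes. The list of transcription factors and regulators shares Ppargc1a with the brown adipocyte list. The medians of the lists were −0.07, 0.06, 0.01, 0.05 and 0.06. In P465L the lists had medians of −0.12, −0.06, −0.11, −0.06 and 0.07, and 0, 0, 2, 1 and 2 genes at an unadjusted p under 0.05. These are 0%, 0%, 14.3%, 4.35% and 16.7%, against 7.43% of all genes. Between the untreated cohorts, Ptcd3 (0.59), another pentatricopeptide repeat protein of the small subunit, was called higher, and Gadd45gip1 (−0.78), a large subunit protein, lower. The initiation factor Mtif2 (0.40), the ribosome rescue factor Mtres1 (0.50), the synthetases Hars2 (0.58) and Rars2 (0.48) and the ribosomal RNA methyltransferase Tfb1m (0.49) were called higher as well. The calls were thus 1 higher and 1 lower of 4, then 2 of 14, 2 of 14, 1 of 23 and 0 of 12, all higher. Of all genes, 6.49% were called in this comparison.

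Markers of other cell types gave few calls in the drug experiment. The endothelial adhesion molecule Pecam1 was called lower in the rosiglitazone average (−0.57) and at 10 mg for 2 days (−0.67), alone among the 7 endothelial markers. Smooth muscle (8 tested), macrophage (7), cardiac (7), skeletal muscle (10) and red blood cell (2) markers had 0 called in every rosiglitazone and P465L comparison. At an unadjusted p under 0.05 these lists held 1, 1, 0, 0 and 0 genes in the rosiglitazone average, where 14.2% of all genes passed. In P465L they held 3, 0, 0, 0 and 1, where 7.43% of all genes passed. The 3 smooth muscle markers (2 lower, 1 higher) are 37.5% of their list, and the 1 red blood cell marker is 50%. For the endothelial markers the shares were 28.6% in the average and 14.3% in P465L. Skeletal muscle markers varied most, with a summed signal of 2647 to 3141 at 10 mg for 14 days and 5211 to 56197 in P465L.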

How the data were processed

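The deposited table gives 1 intensity per probe set and array from Affymetrix mouse arrays, computed by the authors with MAS5 (version not given), per the submitters' processing notes. On every array the mean intensity after trimming 2% at each end was 1500. The array median ran from 321.3 to 450.7, and replicate arrays correlated at 0.964 to 0.988. The number of arrays limits the precision.

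Of 45101 probe sets, 64 are controls, 34945 have 1 gene symbol, 932 several and 9160 none in the platform annotation, and only those with 1 symbol were named. Mrpl30 and Mrpl53 lie only on probe sets with several symbols and were not analysed here. The brightest probe set stood for each gene, 72 was added (the 20th percentile of all signals was 71.8) and log2 taken. Genes were tested where their mean reached the median over all probe sets, log2 of 8.73. A group-means model over all 20 arrays was fitted with limma 3.58.1 (trended prior, 13 residual degrees of freedom) in R 4.3.3.

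The members, the gene lists, the motifs and the rule for named genes were chosen with earlier results of these data known. Named were all called members, the 3 highest and 3 lowest differences of each comparison with chow or littermates, the extremes of brightness, and members with set roles. Mrps23's and other genes' further probe sets were compared with the brightest. Alternatives were an added value of 16, no filter, quantile normalization, averaged probe sets, a replicate block, no variance trend, only the arrays compared, and leaving out each array. Replicate letters were not taken as pairs. Dose and time contrasts averaged the other factor. Group labels came from the sample titles.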

Additional observations from a re-analysis of the deposited data

How the results depend on the processing

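The count of 0 members called in each rosiglitazone, dose, time and P465L comparison was found under all 27 alternatives run. The members' median ran from 0.03 to 0.10 over the alternatives for the rosiglitazone average and from −0.15 to −0.03 for P465L. For 3 mg for 2 days it ran from −0.016 (without array A) to 0.20 over fits that left out 1 array. It changed sign for 10 mg for 2 days (−0.03 to 0.05), dose (−0.08 to 0.03) and time (−0.0011 to 0.11). With the replicate block it was 0.07 for 10 mg for 14 days. Between the untreated cohorts, the number of members called was 0 with averaged probe sets and ran from 2 to 10 when 1 array was left out. Over all tested genes, arrays of different groups with the same replicate letter did not deviate together. The median correlation of deviations was 0.02 over 57 pairs (−0.30 to 0.36). This does not settle pairing for the members. Their centred mean fell from array A to C at 3 mg for 2 days (0.28, −0.03, −0.15) and 10 mg for 2 days (−0.01, −0.06, −0.12). It also fell in littermates (0.19, 0.05, −0.04) and P465L (0.09, −0.003, −0.14). In chow (−0.06, −0.01, −0.14) and at 3 mg for 14 days (−0.13, 0.11, 0.06) the order differed. The group at 10 mg for 14 days has no array C. With the letter as a replicate block 9 members were called between the cohorts, and the block changed no other count of members called. Mrps23 turned to −0.21 with quantile normalization, which makes its second probe set the brightest, and to −0.046 with averaged probe sets. The share of all genes above 0 in the rosiglitazone average was 53.3% without the filter on low values, against 45% with it. Counts over all genes varied more: for the rosiglitazone average from 1 to 83 against 48, and between cohorts from 279 to 906 against 719. Over the 27 alternatives Mrpl35 lost its call between cohorts 14 times and Mrpl42 once (with averaged probe sets). Groups of 2 or 3 pools limit what can be detected.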
